A study of Mus musculus with 9 samples.

Results

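A set of 10 genes of astrocyte reactivity and the acute phase response was followed in mouse hippocampus: Gfap, Vim, S100b, Lcn2, Serpina3n, Cp, Timp1, Osmr, Socs3 and Steap4. They are 10 of the 18820 genes measured. They were taken by name from a list drawn up with earlier results of these arrays known, and so count as selected on the group differences and array values given below, which are a description. The arrays came from C57BL/6 mice aged 12 to 14 weeks, in 3 groups of 3 biological replicates. Surgery+Maresin1 mice were given Maresin 1, a macrophage lipid mediator derived from docosahexaenoic acid, and then underwent an orthopaedic tibia fracture. Surgery mice underwent the tibia fracture without Maresin 1. What the control mice underwent is not stated in the labels, nor are the dose and route of Maresin 1 or any sham or vehicle treatment. Hippocampi were taken at 72 h after surgery, and labelled RNA was made from 6 µg of total RNA for each Affymetrix array. The title of the series states the question as whether Maresin 1 reduces neuroinflammation in a model of perioperative neurocognitive disorders.

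Astrocytes respond to injury and to cytokines from the blood or from microglia by a change of state called reactivity. Reactive astrocytes build more intermediate filament, secrete acute phase proteins that the liver also makes in inflammation, and carry receptors of the interleukin 6 family. These receptors pass their signal through gp130 and the JAK kinases to the transcription factor STAT3, and SOCS3 shuts the signal off again. Several of the 10 genes are not restricted to astrocytes: vimentin is also made by vessel cells and fibroblasts, and lipocalin 2 by neutrophils and endothelium.

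The authors' linear signals had array medians between 54.1 and 100.1, and quantile normalization was therefore applied before log2 of the signal plus 16 was taken. Every level below is on that log2 scale unless a deposited signal is named. Levels of different genes come from different probes and are not set against each other. For a background level, the means of 990 olfactory receptor genes were used, whose 95th percentile was 5.86, and 71.0% of all genes averaged above it. Among the 10 genes, 7 were above it on 9 of 9 arrays, Lcn2 was above it on 4 arrays, and Timp1 and Steap4 were above it on 0 of 9. The tissue label was checked against fixed markers: 19 of 19 measured resting astrocyte markers and 9 of 9 hippocampal neuron markers averaged above this level. Control replicates 2 and 3 stood apart, since their summed signal of 14 choroid plexus genes was 17334 and 21223, while the other 7 arrays lay between 1325 and 1847. Their summed signal of 11 meningeal and vascular fibroblast genes was also the highest, at 4291 and 5316, against 2699 to 3705 on the other 7. None of the 12 cell type lists had a gene at 0.

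Promoter sequences from RefSeq (build GRCm38.p6) were available for all 10 genes, in 11 windows of 300 bases that run from 250 bases before to 50 bases after a transcript start. Both strands were searched for the STAT motif TTCNNNGAA, the C/EBP motif TTGCNNAA and the NF-kB consensus, and no match overlapped another. A STAT match lay in 3 of the 10 genes (Gfap, Socs3 and Steap4), against 8.30% of all 32851 promoter windows. A C/EBP match lay in 3 genes (Lcn2, Cp and Steap4), against 10.8% of all windows, and an NF-kB match in 2 (Vim and Steap4), against 4.51%. The windows of 4 genes are shown because the results below turn on them: a filament, a secreted, a receptor and a feedback gene. Capitals mark the motif matches, each window is written on the gene's own strand, and a match is a description of letters. The windows lie on the minus strand at chr11:102897151-102897450 for Gfap, chr2:32387690-32387989 for Lcn2, chr15:6874264-6874563 for Osmr and chr11:117969317-117969616 for Socs3. The Gfap match is a STAT motif that begins at position -2 from the start, the Lcn2 match a C/EBP motif at -216 and the Socs3 match a STAT motif at -154. The Osmr window held none of the 3 motifs.
Gfap: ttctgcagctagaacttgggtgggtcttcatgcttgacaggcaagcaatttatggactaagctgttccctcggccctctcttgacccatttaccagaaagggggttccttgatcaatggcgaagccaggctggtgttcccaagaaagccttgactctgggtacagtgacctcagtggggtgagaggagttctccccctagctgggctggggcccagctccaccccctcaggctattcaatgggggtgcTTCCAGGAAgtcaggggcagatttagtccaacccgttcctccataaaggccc
Lcn2: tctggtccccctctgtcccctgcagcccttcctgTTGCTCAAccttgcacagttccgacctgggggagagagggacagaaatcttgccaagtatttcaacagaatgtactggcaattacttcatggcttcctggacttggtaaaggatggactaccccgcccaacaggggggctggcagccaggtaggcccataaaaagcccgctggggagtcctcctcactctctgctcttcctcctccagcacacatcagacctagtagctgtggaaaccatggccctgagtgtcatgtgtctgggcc
Osmr: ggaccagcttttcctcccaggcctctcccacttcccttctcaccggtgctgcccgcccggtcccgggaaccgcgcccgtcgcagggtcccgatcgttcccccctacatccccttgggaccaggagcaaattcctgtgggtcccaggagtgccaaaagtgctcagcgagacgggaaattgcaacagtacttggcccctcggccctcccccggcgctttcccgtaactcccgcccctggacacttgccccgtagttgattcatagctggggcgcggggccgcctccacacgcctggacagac
Socs3: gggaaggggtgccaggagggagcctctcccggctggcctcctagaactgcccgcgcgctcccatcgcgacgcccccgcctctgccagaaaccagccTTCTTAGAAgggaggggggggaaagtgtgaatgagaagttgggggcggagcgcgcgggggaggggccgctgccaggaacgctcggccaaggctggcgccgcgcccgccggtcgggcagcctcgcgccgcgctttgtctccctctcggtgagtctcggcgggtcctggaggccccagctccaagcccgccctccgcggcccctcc

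The filament and cytosolic genes of astrocytes differed little between the groups. Gfap (probe set 10391798), the intermediate filament protein that defines astrocytes, stood at levels of 11.23, 11.01 and 10.94 on the Surgery+Maresin1 arrays, 11.04, 10.91 and 10.97 on the Surgery arrays, and 10.75, 10.92 and 10.94 on the control arrays. Surgery+Maresin1 replicate 1 was the highest array and control replicate 1 the lowest, and all 3 groups overlapped. The difference between Surgery+Maresin1 and control was 0.19 ± 0.074 on the log2 scale (SE of limma, n = 3 each; 95% interval 0.03 to 0.35), with a Benjamini-Hochberg adjusted p of 0.330. Between Surgery and control it was 0.10 ± 0.074 (adjusted p = 0.850, limma). In bulk tissue, fewer cells of a type and less RNA per cell cannot be told apart.

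Vim (probe set 10469322), which encodes the intermediate filament vimentin, had levels of 10.31, 10.13 and 10.16 in Surgery+Maresin1, 10.11, 10.13 and 10.13 in Surgery, and 9.78, 10.23 and 10.11 in control. The control arrays held both the lowest value and the second highest one, so the groups overlapped. The Surgery minus control difference of 0.085 ± 0.093 had the opposite sign without control replicate 1, at -0.046. S100b (probe set 10364149), a calcium-binding protein of astrocytes, had levels of 9.91, 9.71 and 9.83 in Surgery+Maresin1, 9.78, 9.77 and 9.78 in Surgery, and 9.52, 9.67 and 9.85 in control. Its 3 Surgery values lay within the range of the control values.

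For Gfap, Vim and S100b the Surgery+Maresin1 minus Surgery differences were 0.091, 0.075 and 0.037 after quantile normalization, and -0.067, -0.081 and -0.12 when each array was scaled to 1 median instead. Without Surgery+Maresin1 replicate 1 they were 0.0047, 0.019 and -0.0094. Surgery+Maresin1 replicate 1 was the highest array for these 3 genes, as it was for 8.63% of all genes. Control replicate 1 was the lowest array for 5 of the 10 (Gfap, Vim, S100b, Cp and Timp1) and for 15.7% of all genes. The same 2 arrays were at the ends of the resting astrocyte list, a set of 19 measured genes that holds none of the 10: its score, the mean log2 deviation of its genes from their 9-array means, was 0.19 in Surgery+Maresin1 replicate 1 and -0.13 in control replicate 1. The summed signal of that list ranged from 39136 to 45919 in Surgery+Maresin1, from 40629 to 43409 in Surgery and from 38503 to 42222 in control. Across the 9 arrays, which share their normalization, the astrocyte score had a Pearson r of 0.72 with Gfap, 0.68 with Vim and 0.77 with S100b. For Vim the hippocampal neuron and ependyma scores had a higher r, at 0.80 each. For Gfap and S100b the astrocyte r over the 9 arrays was the highest of the cell type lists. It was followed by endothelium at 0.64 for Gfap and by hippocampal neurons at 0.67 for S100b. Without Surgery replicate 2 the microglia score had the higher r with Gfap, at 0.87, against 0.82 for resting astrocytes. The part of any of these cells in the differences was not tested.

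**Figure D1:**
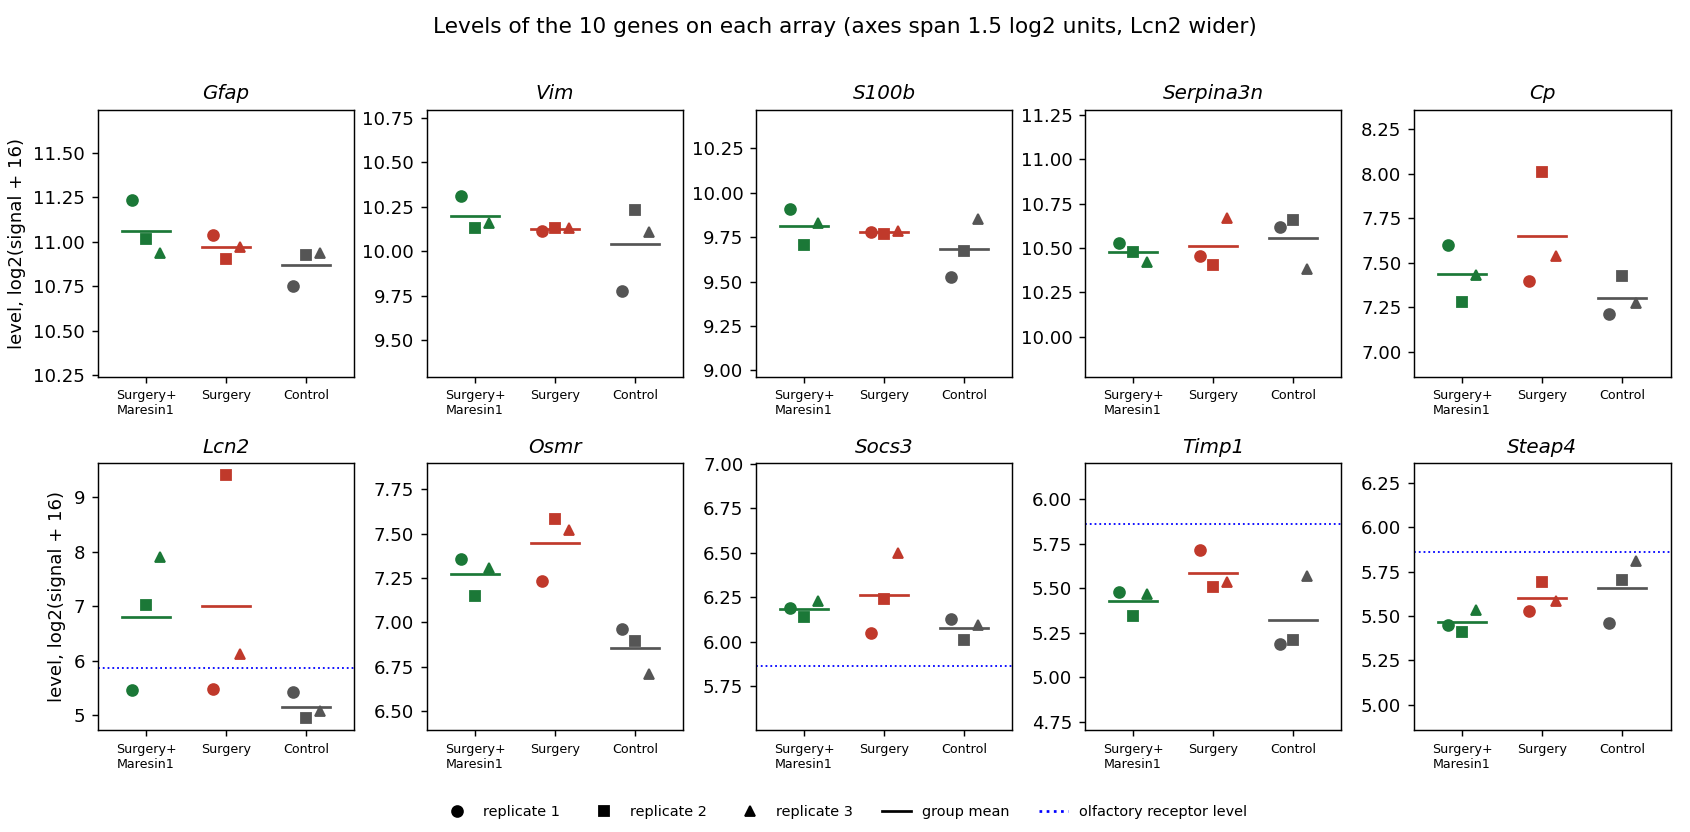
Levels of the 10 genes, as log2 of the quantile normalized signal plus 16, for 3 arrays in each of the Surgery+Maresin1, Surgery and Control groups; symbols are replicates, bars are group means and the dotted line is the olfactory receptor level of 5.86. The groups overlap in most panels, Osmr is lower on all 3 Control arrays, and the Lcn2 panel, drawn on a wider axis, spans 4.45 log2 units.

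Among the secreted acute phase proteins, Lcn2 spread far more within groups than the others. Lcn2 (probe set 10481627) encodes lipocalin 2, a secreted protein that binds iron-carrying bacterial siderophores. Its levels were 5.47, 7.02 and 7.90 in Surgery+Maresin1, 5.48, 9.40 and 6.12 in Surgery, and 5.42, 4.95 and 5.08 in control. Within each group with surgery, 1 array (replicate 1) was below the olfactory receptor level, and the other arrays were above it; the 3 control arrays were below it. The 2 groups with surgery did not overlap with the controls, by 0.052 for the lowest Surgery+Maresin1 array and 0.061 for the lowest Surgery array, both at background level.

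In group terms, Lcn2 averaged 6.80 ± 1.23 in Surgery+Maresin1, 7.0 ± 2.10 in Surgery and 5.15 ± 0.24 in control (SD, n = 3 each). The Surgery minus control difference was 1.85 ± 0.80 (95% interval 0.12 to 3.58), with an adjusted p of 0.781 in limma. Its SE comes from a variance shared by all groups, although the SD was 2.10 in Surgery and 0.24 in control. The interval thus does not show the wider spread within Surgery. The Surgery+Maresin1 minus control difference was 1.65 ± 0.80 (adjusted p = 0.462, limma). Since the control values were at background, no fold is given, and the size depends on the added constant: Surgery minus control was 2.20 with 4 added before log2 and 1.25 with 64 added. On the deposited signals before normalization, the groups overlapped. Surgery+Maresin1 minus Surgery was -0.20 ± 0.80, with a 95% interval of -1.93 to 1.53 (adjusted p = 0.984, limma).

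Single arrays decided the size and, for Maresin 1 against surgery, the sign of the Lcn2 differences. Without Surgery replicate 2 the Surgery minus control difference was 0.65 and the Surgery+Maresin1 minus Surgery difference 1.00. Without Surgery replicate 1 these differences were 2.61 and -0.96. Without Surgery+Maresin1 replicate 1, Lcn2 was 0.46 higher in Surgery+Maresin1 than in Surgery, and 2.31 higher than in control; without Surgery+Maresin1 replicate 3 the difference from control was 1.10.

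Markers of neutrophils, another source of lipocalin 2, were at or near the olfactory receptor level. Of 12 measured neutrophil genes, 1 averaged above it. Their summed signal ranged from 271 to 305 in Surgery+Maresin1, from 297 to 332 in Surgery and from 282 to 309 in control. The defining genes S100a8 and Ngp had levels between 5.0 and 5.45 and between 4.81 and 5.11 over the 9 arrays, and no array put either above 5.86. S100a9 had its highest level, 5.89, on Surgery replicate 2, where the summed signal was also highest, at 332. The part of these cells in the Lcn2 values was not tested.

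Serpina3n (probe set 10398075) encodes a secreted serine protease inhibitor often used as a marker of reactive astrocytes. Its levels were 10.53, 10.48 and 10.42 in Surgery+Maresin1, 10.46, 10.40 and 10.67 in Surgery, and 10.62, 10.66 and 10.38 in control. This was the narrowest range of the 10 genes, 0.28 over 9 arrays, and the groups overlapped. The Surgery minus control difference was -0.045 ± 0.079 and turned to 0.11 with arrays scaled to 1 median. Serpina3n has close paralogues, of which 2 of 10 listed had a probe set of 1 gene here (Serpina3a and Serpina3b, each above the olfactory receptor level on 0 of 9 arrays), so hybridization shared between copies could not be separated.

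Cp (probe set 10490989) encodes ceruloplasmin, a copper-carrying ferroxidase. It had levels of 7.60, 7.28 and 7.43 in Surgery+Maresin1, 7.40, 8.01 and 7.54 in Surgery, and 7.21, 7.43 and 7.27 in control. Surgery replicate 2 was the highest array by 0.41, and the groups overlapped. The Surgery minus control difference of 0.35 ± 0.14 (adjusted p = 0.772, limma) was 0.16 without that array. On the same array the summed signal of 3 measured red cell genes was highest, at 292, and their score had an r of 0.91 with Cp over the 9 arrays. That sum ranged from 116 to 206 in Surgery+Maresin1, from 160 to 292 in Surgery and from 109 to 122 in control. Alas2, the erythroid enzyme of haem synthesis, was the list's 1 gene averaging above the olfactory receptor level. The monocyte and border macrophage score had an r of 0.86 with Cp, the microglia score 0.79 and the neutrophil score 0.70. The other lists lay between -0.28 and 0.66. Without Surgery replicate 2 the red cell r was 0.76 and the endothelium r 0.80. The part of red cells, or of any other of these cells, in the Cp values was not tested.

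Timp1 (probe set 10598976), an inhibitor of matrix metalloproteinases, had levels of 5.48, 5.34 and 5.47 in Surgery+Maresin1, 5.72, 5.51 and 5.54 in Surgery, and 5.19, 5.21 and 5.57 in control. All 9 values were below the olfactory receptor level. The 3 Surgery+Maresin1 arrays were below the 3 Surgery arrays, by a mean difference of -0.16 ± 0.11 (adjusted p = 0.886, limma). Control replicate 3 lay within the range of the Surgery arrays.

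Of the 10 genes, Osmr had the largest difference from control relative to the spread between arrays. Osmr (probe set 10427471) encodes the oncostatin M receptor, which pairs with gp130. Its levels were 7.36, 7.15 and 7.31 in Surgery+Maresin1, 7.23, 7.58 and 7.52 in Surgery, and 6.96, 6.89 and 6.71 in control. The 3 control arrays lay below all 6 arrays from mice with surgery, and the 2 groups with surgery overlapped. Osmr averaged 7.27 ± 0.11 in Surgery+Maresin1, 7.45 ± 0.19 in Surgery and 6.85 ± 0.13 in control (SD, n = 3 each). The Surgery minus control difference was 0.59 ± 0.11, a 1.51-fold difference (95% interval 0.35 to 0.83), with an adjusted p of 0.424 in limma.

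The Osmr difference between Surgery+Maresin1 and control was 0.42 ± 0.11, or 1.33-fold (95% interval 0.18 to 0.65; adjusted p = 0.174, limma). Between Surgery+Maresin1 and Surgery it was -0.17 ± 0.11 (95% interval -0.41 to 0.06; adjusted p = 0.874, limma). With 1 array left out at a time, Surgery minus control stayed between 0.52 and 0.70. It was past the threshold without control replicate 1 (0.64, adjusted p = 0.0186, limma) and with arrays scaled to 1 median (0.65, adjusted p = 0.0170, limma). The fit without control replicate 1 put 169 of all genes past the threshold, where the main fit put 0. Its remaining controls were replicates 2 and 3, the pair with much choroid plexus signal. Median scaling also put more genes past the threshold and raised the median difference of all genes. The deposited Osmr signals before normalization were 149.6, 113.7 and 151.5 in Surgery+Maresin1, 92.7, 199.2 and 192.1 in Surgery, and 141.0, 92.3 and 79.7 in control, and these overlapped.

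Endothelial genes had higher summed signals on the same arrays as Osmr. The summed signal of 13 measured endothelial genes, all of which averaged above the olfactory receptor level, ranged from 5056 to 6378 in Surgery+Maresin1, from 5661 to 5925 in Surgery and from 4633 to 4725 in control. Their score had an r of 0.84 with Osmr over the 9 arrays. The score of 12 pericyte and smooth muscle genes had an r of 0.80, with summed signals of 3227 to 4186 in Surgery+Maresin1, 3933 to 4091 in Surgery and 3170 to 3435 in control. The red cell score had an r of 0.80 with Osmr, the choroid plexus score -0.76 and the resting astrocyte score 0.30. The other lists lay between -0.39 and 0.58. The part of vessel cells, or of any other of these cells, in the Osmr difference was not tested. The Osmr difference from surgery was 0.48 against control replicate 1 alone, the control array without the high choroid plexus signal.

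Socs3 (probe set 10393449), the feedback inhibitor of JAK-STAT signalling, had levels of 6.19, 6.14 and 6.23 in Surgery+Maresin1, 6.05, 6.24 and 6.50 in Surgery, and 6.13, 6.01 and 6.09 in control. The Surgery arrays held the highest value and the second lowest one, while the Surgery+Maresin1 arrays lay above the controls by 0.010 at the closest. Surgery minus control was 0.18 ± 0.11 (adjusted p = 0.820, limma) and was 0.066 without Surgery replicate 3. A second Socs3 probe set of 1 gene (10383010) did not follow the first: it had levels of 5.76, 5.80 and 6.05 in Surgery+Maresin1, 5.98, 5.87 and 5.74 in Surgery, and 5.83, 6.02 and 5.96 in control. Surgery replicate 3, the highest array on the first probe set, was the lowest on the second. Averaged over both probe sets, Surgery minus control was 0.053.

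Steap4 (probe set 10519497), a metalloreductase that reduces iron and copper at membranes, had levels of 5.45, 5.41 and 5.54 in Surgery+Maresin1, 5.53, 5.69 and 5.58 in Surgery, and 5.46, 5.70 and 5.81 in control. All values were below the olfactory receptor level, and the groups overlapped. Its highest arrays were control replicates 3 and 2, the pair with much choroid plexus signal, and the score of that list had an r of 0.75 with Steap4. The r was 0.78 for the meningeal and vascular fibroblast score, 0.72 for the neutrophil score and -0.81 for the oligodendrocyte score. The other lists lay between -0.36 and 0.43. The part of any of these cells in the Steap4 values was not tested. Surgery minus control was -0.056 ± 0.10 and turned to 0.14 against control replicate 1 alone.

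A response on a single array was taken as a highest array more than 1 log2 unit, or 2-fold, above the second highest. By this measure 3 of 18820 genes stood out, 0.0159% of all, and Lcn2 was the first of them with a gap of 1.5, or 2.82-fold. The others were Gbp4 with a gap of 1.21 and Gbp5 with 1.14, both interferon-inducible guanylate-binding proteins and both named here after their values were seen. All 3 had their highest value on Surgery replicate 2. The next were Gbp2 at 0.92 and Lrg1, a leucine-rich acute phase glycoprotein, at 0.86, also on Surgery replicate 2. Lcn2 kept the largest gap under the 6 other settings tried, from 1.33 to 1.77. Among these, the filter on dim genes and the mean of probe sets could not change its gap. Neither alters the values of a gene with 1 probe set.

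Gbp4 and Gbp5 were high on Surgery replicate 2 and lay close together on the other 8 arrays, whereas Lcn2 did not. Gbp4 had levels of 6.15, 6.17 and 6.13 in Surgery+Maresin1, 6.24, 7.50 and 6.16 in Surgery, and 5.81, 5.96 and 6.29 in control. Gbp5 had 5.58, 5.55 and 5.78 in Surgery+Maresin1, 5.34, 6.92 and 5.65 in Surgery, and 5.58, 5.30 and 5.29 in control. For Lcn2, Surgery+Maresin1 replicates 2 and 3 and Surgery replicate 3 were also above every control array, by 0.70 at the closest. Of the 10 genes, Lcn2, Cp and Osmr were highest on Surgery replicate 2, an array that was the highest for 7.11% of all genes. Cp ranked 127 among all genes by its gap, and Socs3, highest on Surgery replicate 3, ranked 498 with a gap of 0.26.

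**Figure D2:**
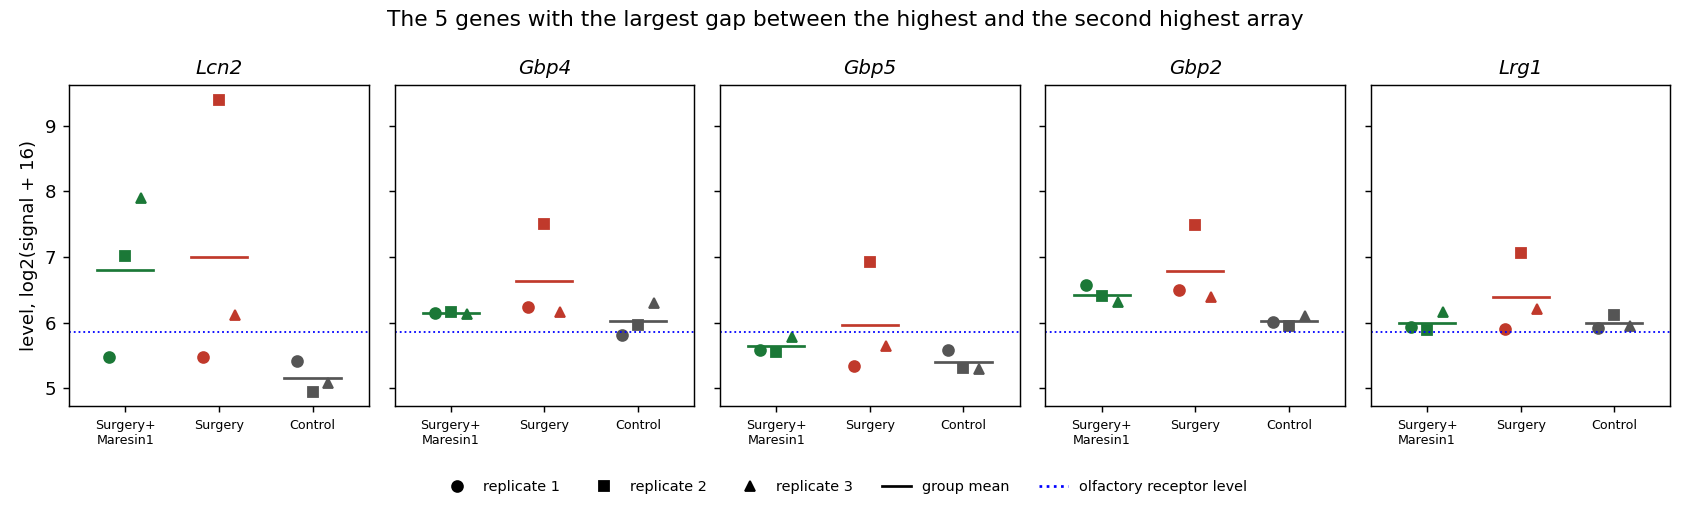
Levels, as log2 of the quantile normalized signal plus 16, of the 5 genes with the largest gap between their highest and second highest array (Lcn2, Gbp4, Gbp5, Gbp2 and Lrg1), for 3 arrays per group; symbols are replicates, bars are group means and the dotted line is the olfactory receptor level. Surgery replicate 2, the square, is the highest array in every panel and Lcn2 is also above every control array, by 0.70 or more, on Surgery+Maresin1 replicates 2 and 3 and Surgery replicate 3.

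Surgery was compared with control to ask how far the fracture changed these genes at 72 h. Of the 10 genes, 8 had a higher mean in Surgery and 2, Serpina3n and Steap4, a lower one. The median difference was 0.14, against 0.02 over all genes, and 58.4% of all genes had a difference above 0. No gene of the 10 passed an adjusted p of 0.05 in limma (lowest 0.424, highest 0.955), nor did any of the 18820 genes (0.0%). At an unadjusted p under 0.05, 4 of the 10 were higher (Osmr, Cp, Lcn2 and Timp1), against 3.9% of all genes. For Lcn2 that p rests on a variance shared by groups of unequal spread. The groups did not overlap for Osmr and Lcn2, both higher in Surgery, against 7.71% of all genes that were higher without overlap. Without Surgery replicate 2, 9 of the 10 means were higher in Surgery.

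Surgery+Maresin1 was compared with Surgery to ask what Maresin 1 changed after the fracture. Of the 10 genes, 7 had a lower mean with Maresin 1, and Gfap, Vim and S100b a higher one. With arrays scaled to 1 median, all 10 means were lower with Maresin 1, while the median of all genes moved by -0.089; without Surgery replicate 3, 5 of the 10 were lower. The median difference of the 10 was -0.11, against -0.02 over all genes, of which 41.7% had a difference above 0. None of the 10 passed the adjusted threshold in limma (0.0% of all genes did; adjusted p from 0.874 to 0.984), and 0 had an unadjusted p under 0.05, against 5.66% of all genes. Timp1 was the 1 gene of the 10 without overlap, lower with Maresin 1, as were 8.2% of all genes. The 95% intervals of the differences reached from -0.51 to 0.28 for the 9 genes other than Lcn2, so a p that misses the threshold does not show that Maresin 1 left these genes alike.

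Surgery+Maresin1 was also set against control. It shares its arrays with the comparisons above, so its values are not separate evidence. Of the 10 genes, 8 had a higher mean in Surgery+Maresin1, and Serpina3n and Steap4 a lower one, where 49.0% of all genes had a difference above 0. The median difference of the 10 was 0.13, against -0.0032 over all genes. None of the 10 was among the 16 genes past the adjusted threshold in limma (0.085% of all genes; adjusted p of the 10 from 0.174 to 0.807). At an unadjusted p under 0.05, 2 were higher, Osmr and Gfap, against 5.87% of all genes. Osmr, Lcn2 and Socs3 were higher without overlap, against 7.61% of all genes. On the deposited signals before normalization, none of the 10 was without overlap in any of the 3 comparisons.

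**Figure D3:**
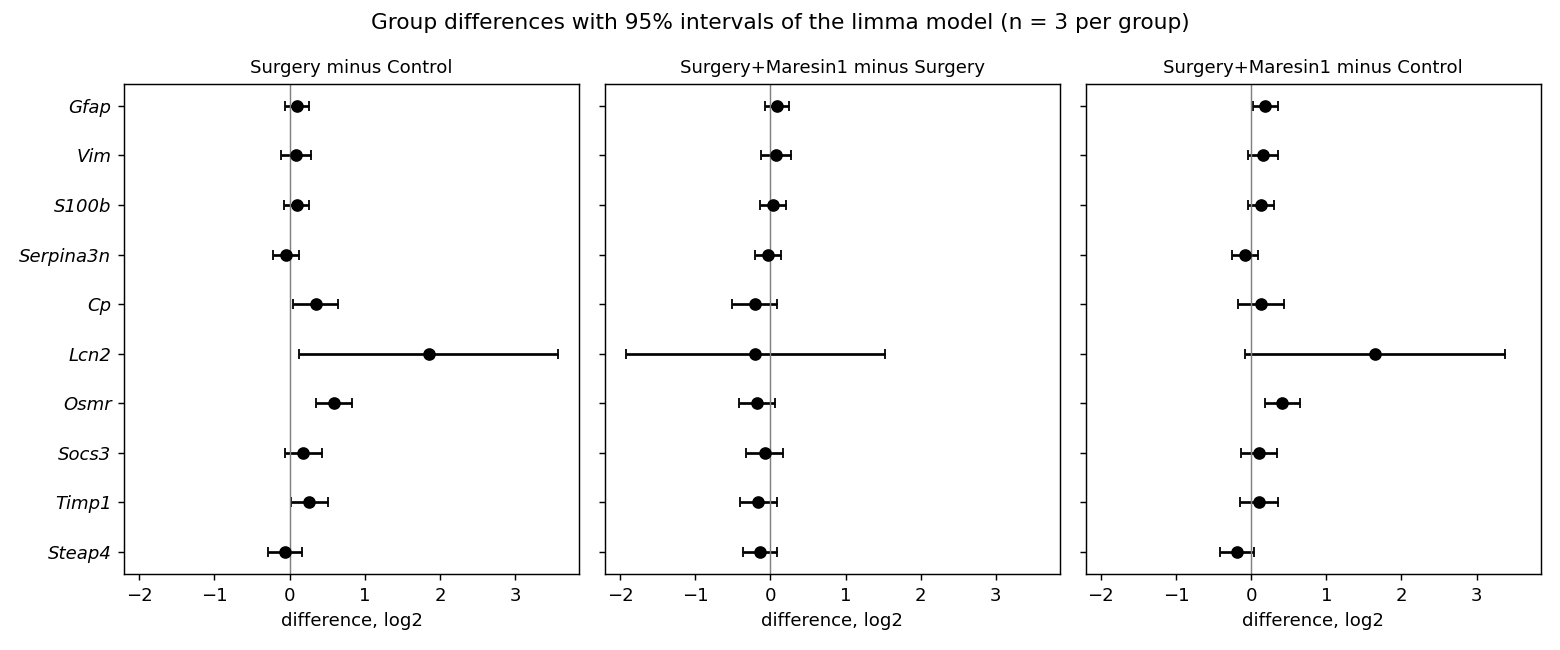
Differences of group means on the log2 scale for the 10 genes in 3 comparisons, with points for the estimates and bars for the 95% intervals of the limma model (n = 3 per group). Osmr lies above 0 in both comparisons with control, at 0.59 and 0.42, and the intervals of Lcn2 are the widest, reaching from -1.93 to 1.53 for Surgery+Maresin1 minus Surgery.

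Other genes of the same pathways were taken from fixed lists, and 0 genes of the 11 lists passed the adjusted threshold in any of the 3 comparisons. Of 12 listed genes tied to a neurotoxic type of reactive astrocyte, 8 were measured, and C3, H2-D1, Ggta1 and Amigo2 were not. All 8 had a higher mean in Surgery than in control, where 58.4% of all genes did, and their median difference was 0.25. The smallest p were those of Gbp2, at 0.77 ± 0.22 (adjusted p = 0.640, limma), and Fkbp5, a glucocorticoid-induced co-chaperone, at 0.27 ± 0.09 (adjusted p = 0.683, limma). Without Surgery replicate 2 the Gbp2 difference was 0.43. In the same comparison the means of 13 of 13 endothelial genes (median 0.31), 11 of 12 pericyte and smooth muscle genes (median 0.25) and 12 of 13 microglial genes (median 0.11) were also higher, with 0 past the adjusted threshold. The part of these cells in the list's values was not tested. With Maresin 1, 1 of these 8 was higher than in Surgery (median -0.11) and 6 were higher than in control (median 0.17). Of 10 genes tied to astrocyte reactivity of any type, 9 were higher in Surgery than in control (median 0.11), 2 in Surgery+Maresin1 than in Surgery (median -0.08) and 6 in Surgery+Maresin1 than in control (median 0.03). Hspb1, a small heat shock protein in that list, was 0.56 lower with Maresin 1 than in Surgery (adjusted p = 0.859, limma), and 0.28 lower when Surgery replicate 3 was left out. Its groups did not overlap, and 8.2% of all genes were lower without overlap there. Hspb1 has 3 probe sets of 1 gene, and these values are from the one with the highest mean (10408928). The others are not given here.

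Of 18 measured genes of gp130 cytokines, their receptors and JAK-STAT3 signalling, 13 were higher in Surgery than in control (median 0.07), 7 in Surgery+Maresin1 than in Surgery and 10 in Surgery+Maresin1 than in control. Stat3 itself was 0.18 higher in Surgery+Maresin1 than in control, without overlap (adjusted p = 0.238, limma). Pias3, an inhibitor of STAT3, was -0.23 from Surgery and -0.25 from control in Surgery+Maresin1, without overlap in either (adjusted p = 0.859 and 0.234, limma). Of all genes, 8.2% were lower without overlap in Surgery+Maresin1 than in Surgery. Against control, 6.71% were lower and 7.61% higher without overlap. In the SOCS family of 7 genes, 2 were higher in Surgery than in control, and Socs7 differed by -0.26 between Surgery+Maresin1 and control (adjusted p = 0.095, limma). Of 22 acute phase genes, 8 of which averaged above the olfactory receptor level, 13 were higher in Surgery than in control, with a median of 0.02, the same as over all genes.

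In the list of 10 genes tied to a reactive type seen after ischaemia, 4 averaged above the olfactory receptor level. Of the 10 in that list, 7 were higher in Surgery than in control (median 0.03), and 3 in Surgery+Maresin1 than in Surgery and than in control. A pair of its genes had the lowest adjusted p of the 11 pathway lists in Surgery+Maresin1 against control: S100a10, an annexin partner, at 0.44 ± 0.08 (adjusted p = 0.083, limma), and Tm4sf1, a surface protein of endothelium, at 0.59 ± 0.12 (adjusted p = 0.089, limma). Both were higher without overlap, as were 7.61% of all genes. Some list genes differed with the choroid plexus signal of control replicates 2 and 3. Krt18, an epithelial keratin, was -1.12 and Steap1, a relative of Steap4, was -1.40 in Surgery minus control, and against control replicate 1 alone these values were 0.22 and 0.06. A2m, the acute phase protease inhibitor alpha-2-macroglobulin, was -0.71 and turned to 0.15 in the same way.

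How the levels of the 10 genes varied together over the 9 arrays is given as a description, in which differences between groups and variation within groups are mixed. Of 45 pairs, 8 had a Pearson r over 0.5 and 2 under -0.5, with a median of 0.23. Gfap, Vim and S100b were paired at 0.75 to 0.80. Osmr was paired with Cp at 0.75, with Socs3 at 0.70 and with Lcn2 at 0.66, and Lcn2 with Cp at 0.67. Timp1 and S100b had an r of 0.73, although every Timp1 value was below the olfactory receptor level. Lcn2 and Gfap had an r of -0.13. Without Surgery replicate 2 the Lcn2 and Cp pair was at 0.05, the Lcn2 and Osmr pair at 0.50 and the Osmr and Cp pair at 0.72. Without that array, Cp was also paired with Gfap at 0.71, with Vim at 0.75 and with S100b at 0.63, where all 9 arrays gave 0.22, 0.41 and 0.36.

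The deviations of each array from its group mean gave other values for several pairs, with 10 pairs over 0.5 and 4 under -0.5. Lcn2 and Gfap were then at -0.70, Osmr and Timp1 at -0.64 (0.37 before the group means were taken out), Steap4 and S100b at 0.77 (0.21 before) and Steap4 and Vim at 0.67 (0.16 before). Timp1 and Steap4 lay below the olfactory receptor level on every array, so an r with either gene uses values at background. Gfap, Vim and S100b stayed paired at 0.65 to 0.73. The pair of Osmr and Cp was at 0.67 and that of Lcn2 and Osmr at 0.42.

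**Figure D4:**
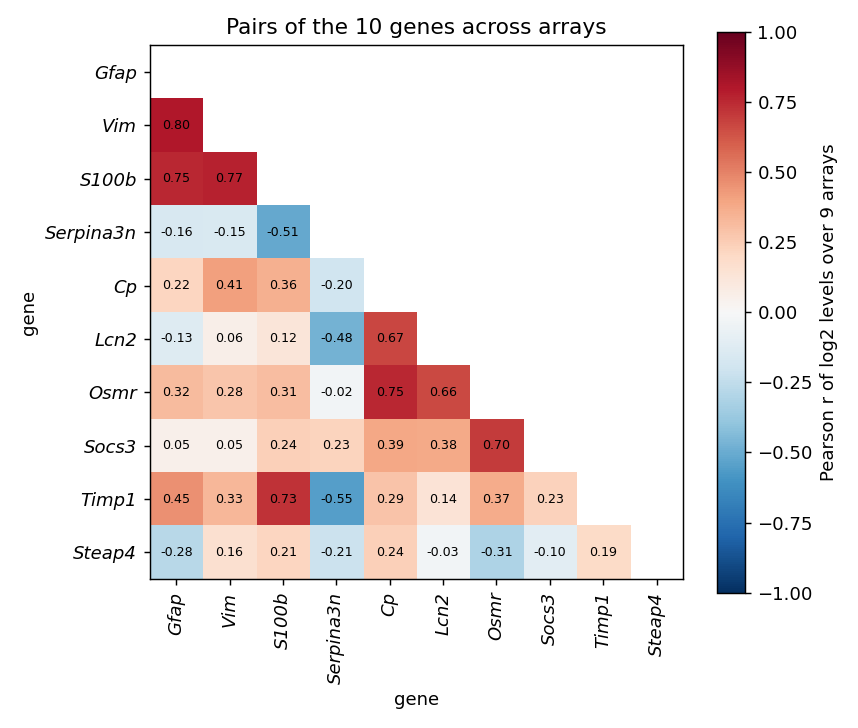
Pearson r of the log2 levels of each pair of the 10 genes over 9 arrays, with the value printed in each cell and colour from -1 (blue) to 1 (red). The block of Gfap, Vim and S100b lies between 0.75 and 0.80, and Osmr is paired with Cp, Socs3 and Lcn2 at 0.66 to 0.75.

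The genes most like 3 of the 10 were found by Pearson r over the 9 arrays among 13363 genes that averaged above the olfactory receptor level, and are thus the highest of many values. For Lcn2 they were Tnfsf10 (r = 0.92), Gbp9 (0.90), Map3k8 (0.89), Ier3 (0.87) and Dbndd2 (0.86). For Osmr they were Zfp366 (0.99), Adgrl4 (0.99), Pglyrp1 (0.97), Pcdhb8 (0.96) and Kcnj8 (0.96). For Gfap they were Rorb (0.96), Rasl10a (0.96), 2810459M11Rik (0.95), Abhd4 (0.94) and Gramd3 (0.94). No gene was in 2 of these 3 sets.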

How the data were processed

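Gene expression was measured on 9 arrays, grouped by their titles. Affymetrix Expression Console was the authors' software, per the submitters' processing notes, which name no version or algorithm. Each deposited value is an intensity, the linear signal of a probe set, and there are 35556 probe sets. Of these, 21218 name 1 gene, 1881 name several and 12457 are not listed with a gene. Identifiers of 21185 probe sets matched the gene table. Signals were quantile normalized over all probe sets, 16 was added and log2 was taken. The probe set with the highest mean stood for each of the 1386 genes with several, which left 18820 genes with no filter on dim ones.

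Group differences were fitted in R 4.3.3 with limma 3.58.1, as 1 model over 9 arrays with a variance trend and no covariate, and p-values were adjusted by Benjamini-Hochberg over all genes with a threshold of 0.05. The test was also run on simulated data. Precision is limited by the 3 arrays in a group, since arrays carry no read depth. Array and batch dates were not used here.

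The members, lists and tests were chosen with earlier results of these data known. Named genes are the 10 members, the 2 genes with the smallest p of each of 11 pathway lists in each comparison, all called genes of those lists, and the 5 genes most like Lcn2, Osmr and Gfap; the text gives some of them. Cell type lists, 12 in number, are described by summed signal and score. Alternatives were the added constant, the scaling, the filter, the probe set, the arrays in the fit, the variance model, the replicate block and left-out arrays.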

Additional observations from a re-analysis of the deposited data

How the results depend on the processing

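Over the alternatives, 464 differences of the 10 genes were recomputed in 30 gene and comparison pairs, and 16 of them in 10 pairs turned their sign; the cause was not tested. For Surgery minus Control, Serpina3n was 0.11 with median scaling and -0.13 to 0.0083 with 1 array left out (above 0 without Control replicate 2 or Surgery replicate 2), Vim was -0.046 to 0.18 with 1 array left out (below 0 without Control replicate 1), and Steap4 was 0.019 without Control replicate 3 and 0.14 with control replicate 1 as the only control. For Surgery+Maresin1 minus Surgery, median scaling gave -0.067 for Gfap, -0.081 for Vim and -0.12 for S100b, and S100b was -0.014 without normalization. With 1 array left out, Gfap ranged from 0.0047 to 0.15, Vim from 0.019 to 0.11, S100b from -0.0094 to 0.091 (all 3 lowest without Surgery+Maresin1 replicate 1), and Lcn2 from -0.96 (without Surgery replicate 1) to 1.00 (without Surgery replicate 2), with 0.46 without Surgery+Maresin1 replicate 1. Serpina3n ranged from -0.086 to 0.047 and Socs3 from -0.18 to 0.043, both highest without Surgery replicate 3. For Surgery+Maresin1 minus Control, Steap4 was 0.0023 against control replicate 1 alone. Among other named genes, median scaling turned Surgery minus Control to 0.088 for Slc22a17, 0.097 for Socs7 and 0.0088 for S100a16. Against control replicate 1 alone it was 0.022 for Slc22a17, 0.15 for A2m, 0.044 for Mmp14, 0.22 for Krt18, 0.057 for Steap1 and 0.074 for Steap2, and Surgery+Maresin1 minus Control was 0.14 for A2m and 0.31 for Krt18. The dim gene Serpina3a turned in Surgery minus Control to -0.024 without normalization and to -0.11 within a leave-one-out range up to 0.20, in Surgery+Maresin1 minus Surgery to 0.055 without normalization and was -0.082 to 0.041 with 1 array left out, and in Surgery+Maresin1 minus Control it ranged from -0.12 to 0.20 with 1 array left out; Serpina3b turned there to 0.0069 and 0.0035. The count of genes called over all 18820 was 0 for Surgery minus Control, 37 with median scaling, 42 without normalization and 0 to 169 with 1 array left out (169 without Control replicate 1). For Surgery+Maresin1 minus Control it was 16, against 38 with median scaling, 43 without normalization, 0 in a fit of 2 groups only, 0 without the variance trend, 4 with control replicate 1 as the only control, and 0 to 245 with 1 array left out (245 without Control replicate 1, 0 without Control replicate 2 or any Surgery+Maresin1 array). It was 0 for Surgery+Maresin1 minus Surgery under every alternative run. Without normalization the model took the spread of a gene from all genes rather than from its own arrays (SE of Lcn2 0.21, against 0.80), so calls of that fit say nothing about single genes. Median scaling moved the median of all genes in Surgery minus Control to 0.10. Same-numbered arrays did not deviate together (r from -0.24 to 0.055, against -0.15 to 0.19 for other numbers). Deviations within a group of 3 arrays sum to 0, so these r cannot tell whether the numbers pair the mice. The replicate block left 0 calls in Surgery+Maresin1 minus Control. Settings of the next measures were chosen after seeing the data: genes with a single-array response numbered 3, against 5 with 4 added before log2, 1 with 64 added and 5 without normalization, and pairs with r over 0.5 numbered 8, against 13 with median scaling and 28 without normalization. In the fits with control replicate 1 as the only control, that array is assumed to vary like the other groups.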
